A study of Mus musculus with 6 samples.

Results

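The data described here are the CpGs of mouse chromosomes 8 and 11 read by reduced representation bisulfite sequencing (RRBS) in chemically induced pluripotent stem cells (C-iPSCs), 4-factor iPSCs (4F-iPSCs) and embryonic stem cells (mESCs). A CpG was included where it had at least 10 reads in each of the 6 libraries and no more than 1000 reads in any. This left 128439 CpGs, 54376 on chromosome 8 and 74063 on chromosome 11, of 956940 CpGs on all chromosomes. The other 17 autosomes held 805431 of these CpGs and served as the reference. All 3 cell types were male and had 2 replicate libraries each. Per the paper's methods, all were maintained in medium with serum, LIF and 2i. The C-iPSCs had been induced from OG2-MEFs with small-molecule cocktails and were used at passages 5 to 10. Per the paper's methods, the cocktails held 5-Aza-2'-deoxycytidine and DZNep for a part of the induction, which are not listed for the 4F-iPSCs. The part of these compounds in the methylation levels was not tested. The 4F-iPSCs had been induced from OG2-MEFs with retroviruses for Oct4, Sox2, Klf4 and c-Myc and were used at the same passages. OG2-MEFs are embryonic fibroblasts that carry an Oct4-GFP reporter. The mESCs were the E14 line at passages 20 to 30. Nothing in the labels says whether the replicates were separate cultures or clones, so p-values measure only the spread between these libraries, which may be technical. The passages of iPSCs and mESCs did not overlap. Per the paper's methods, the OG2-MEFs came from several mouse strains, and both kinds of iPSCs came from them, whereas E14 is a separate line. Passage and genetic background therefore cannot be told apart from cell type in comparisons with mESCs.

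Gains of a whole chromosome 8 or 11 are among the recurrent changes of mouse embryonic stem cells in long culture, and cells that carry one can overgrow the others. RRBS cuts DNA at MspI sites. At sites shared by all libraries, the reads at a CpG depend, among other things, on the number of copies of its chromosome. The C and T calls in the same reads give its methylation level. Differences in these sites between the genetic backgrounds of the libraries were not tested. Chromosome 11 also carries the Hoxb cluster, the p53 gene Trp53, and the imprinted genes Grb10 and Zrsr1, at which the maternal and paternal copies are methylated differently.

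Of 85063 CpGs of chromosome 8 with a read, 30678 had under 10 reads in some library and 9 had over 1000 reads. Of 104538 on chromosome 11, 30443 and 32 were left out for these reasons. CpGs just outside the read minimum had somewhat higher levels than those just inside, in every library on both chromosomes. On chromosome 8, the 1033 CpGs with a lowest count of 10 reads had mean levels of 20.3% to 35.1% over the libraries, and the 947 with a lowest count of 9 reads had 21.7% to 36.6%. On chromosome 11, the 1190 with 10 reads had 20.1% to 34.6% and the 1143 with 9 reads had 21.2% to 36.3%. The libraries held between 53694199 and 96534037 reads on CpGs, and the median CpG of the 2 chromosomes had between 44 reads in mESC replicate 2 and 77 in 4F-iPSC replicate 1. Of the promoters fixed to check the cell type, that of Zfp42 on chromosome 8, a pluripotency marker, was low in all libraries, between 6.34% and 18.3%. Pou5f1 and Nanog had 1 and 2 CpGs with enough reads, with levels from 0% to 4.65% and from 0% to 9.77%, and Dppa3 and Tdgf1 had none.

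The methylation differences described further on are best seen at single regions, and 5 of them are printed here from GRCm38, plus strand. In each, the capitals mark the CpGs that were strongly hypermethylated in the comparison given. They were chosen as regions with many such CpGs, and the printed stretches lie outside exons. The first lies in Grb10 (chr11:12026325-12026624), for 4F-iPSCs compared with C-iPSCs, in which 25 of 25 tested CpGs were strong. The second is intergenic on chromosome 8, in soft-masked repeat sequence 74956 bp from March1 (chr8:65542740-65542944), for the same comparison. The third is intergenic, also in soft-masked repeat sequence, 66509 bp from Nat1, the nearest coding gene (chr8:67414281-67414412), and marks C-iPSCs versus mESCs. The last 2 are intergenic, 13953 bp from Stac2 (chr11:98067415-98067714, 4F-iPSCs versus mESCs) and 9586 bp from Fbxl20 (chr11:98072783-98072970, C-iPSCs versus mESCs). Of the tested CpGs of these whole regions, 54.5% and 55.6% were soft-masked. Regions outside genes are named here by the nearest coding gene only to tell them apart.
Grb10: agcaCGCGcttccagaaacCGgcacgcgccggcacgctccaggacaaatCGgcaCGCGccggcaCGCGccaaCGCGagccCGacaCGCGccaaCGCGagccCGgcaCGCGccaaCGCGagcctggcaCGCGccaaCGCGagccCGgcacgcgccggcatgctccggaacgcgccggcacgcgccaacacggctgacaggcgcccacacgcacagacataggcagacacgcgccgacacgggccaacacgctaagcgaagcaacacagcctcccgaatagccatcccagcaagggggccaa
March1: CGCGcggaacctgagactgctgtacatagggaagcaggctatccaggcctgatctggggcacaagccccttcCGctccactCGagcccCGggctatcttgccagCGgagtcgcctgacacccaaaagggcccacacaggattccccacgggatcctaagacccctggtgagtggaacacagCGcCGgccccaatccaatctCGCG
Nat1: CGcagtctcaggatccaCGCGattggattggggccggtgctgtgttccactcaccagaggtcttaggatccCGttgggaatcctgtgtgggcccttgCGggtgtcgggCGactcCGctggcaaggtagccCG
Stac2: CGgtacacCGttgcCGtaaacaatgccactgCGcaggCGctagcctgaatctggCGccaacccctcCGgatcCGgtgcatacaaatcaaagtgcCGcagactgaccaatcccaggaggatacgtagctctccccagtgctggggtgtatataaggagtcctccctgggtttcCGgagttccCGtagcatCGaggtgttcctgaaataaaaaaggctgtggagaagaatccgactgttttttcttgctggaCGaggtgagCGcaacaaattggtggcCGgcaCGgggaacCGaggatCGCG
Fbxl20: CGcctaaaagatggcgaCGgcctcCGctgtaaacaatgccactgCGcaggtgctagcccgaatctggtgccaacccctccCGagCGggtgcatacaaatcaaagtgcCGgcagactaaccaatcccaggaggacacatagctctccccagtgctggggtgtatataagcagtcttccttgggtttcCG

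Some of these regions shared sequence with each other. The regions named by Stac2 and Fbxl20 had 104 of the 188 bases of the shorter region in shared blocks of at least 12 bases on the same strand, with a longest run of 31 bases. The regions named by Nat1 and March1 had 91 of 132 bases in such blocks on opposite strands, with a longest run of 21 bases.

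Chromosome 8 had a copy ratio near 1 in all 6 libraries. For each CpG, reads scaled by library were divided by their mean over the 6 libraries, and the median over the chromosome was divided by that over the other autosomes. This copy ratio was 0.999 in both C-iPSC libraries, 0.998 in both 4F-iPSC libraries, 1.003 in mESC replicate 1 and 1.000 in mESC replicate 2. An extra copy in all cells of both libraries of 1 cell type would give 1.29 in these and 0.857 in the others. The chromosome ranked between 13 and 18 of the 19 autosomes by distance from 1. On the log2 scale, C-iPSCs differed from mESCs by -0.0041 (95% interval -0.0154 to 0.0072, limma adjusted p = 0.598). The difference of 4F-iPSCs from mESCs was -0.0054 (-0.0166 to 0.0059, adjusted p = 0.382), and that of 4F-iPSCs from C-iPSCs was -0.0013 (-0.0126 to 0.0100, adjusted p = 0.830). A full extra copy would be 0.585 on this scale. Read as a share of cells with an extra chromosome 8, the 3 intervals together ran from -2.29% to 1.39%, where a negative share means fewer copies in the first-named cell type. Over CpGs under a level of 0.3 in every library, the log2 differences from mESCs were farther from 0, -0.0202 for C-iPSCs and -0.0154 for 4F-iPSCs, and neither was called.

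Chromosome 11 varied more between libraries than chromosome 8, and limma over all 6 libraries, without a replicate block, made no call. Its copy ratio was 1.018 and 1.005 for C-iPSCs, 1.000 and 0.981 for 4F-iPSCs, and 1.007 and 0.999 for mESCs. The 4F-iPSC libraries lay below both C-iPSC libraries, whereas the mESC libraries overlapped both. The means were 1.012 ± 0.00918, 0.990 ± 0.0132, and 1.003 ± 0.00586 (SD, n = 2). C-iPSC replicate 1 and 4F-iPSC replicate 2 each ranked 2 of 19 autosomes by distance from 1, after chromosome 14. The log2 difference was 0.0120 between C-iPSCs and mESCs (-0.0163 to 0.0403, limma adjusted p = 0.598) and -0.0186 between 4F-iPSCs and mESCs (-0.0468 to 0.0097, adjusted p = 0.304). Between 4F-iPSCs and C-iPSCs it was -0.0306 (-0.0588 to -0.0023, adjusted p = 0.118), with an interval for this single chromosome that leaves out 0. With a replicate block, this difference was called (limma adjusted p = 0.0135). Without mESC replicate 2, which took part in the shared estimate of spread, chromosome 11 was called in this comparison (-0.0301, limma adjusted p = 0.0428). As shares of cells, these differences would be 1.67% (-2.24 to 5.66), -2.56% (-6.39 to 1.35) and -4.19% (-7.99 to -0.319). Reads summed in 500-bp bins gave a call for 4F-iPSCs versus mESCs, -0.0269 (adjusted p = 0.0205), and versus C-iPSCs, -0.0403 (adjusted p = 1.24e-04).

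In the fit over all libraries without a replicate block, neither chromosome was called, beside 15.8%, 15.8% and 0.0% of the 19 autosomes called in C-iPSCs versus mESCs, 4F-iPSCs versus mESCs, and 4F-iPSCs versus C-iPSCs. Without chromosome 14, the other 16 autosomes had copy ratios between 0.982 and 1.021 over all libraries. Chromosome 8 lay inside the range of these autosomes in its own library in all 6. Chromosome 11 lay above that range in C-iPSC replicate 1, where the others reached 1.008, and below it in 4F-iPSC replicate 2, where the others went down to 0.982. The ratio compares libraries only, and a gain shared by all 6 libraries would leave it at 1.

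**Figure D1:**
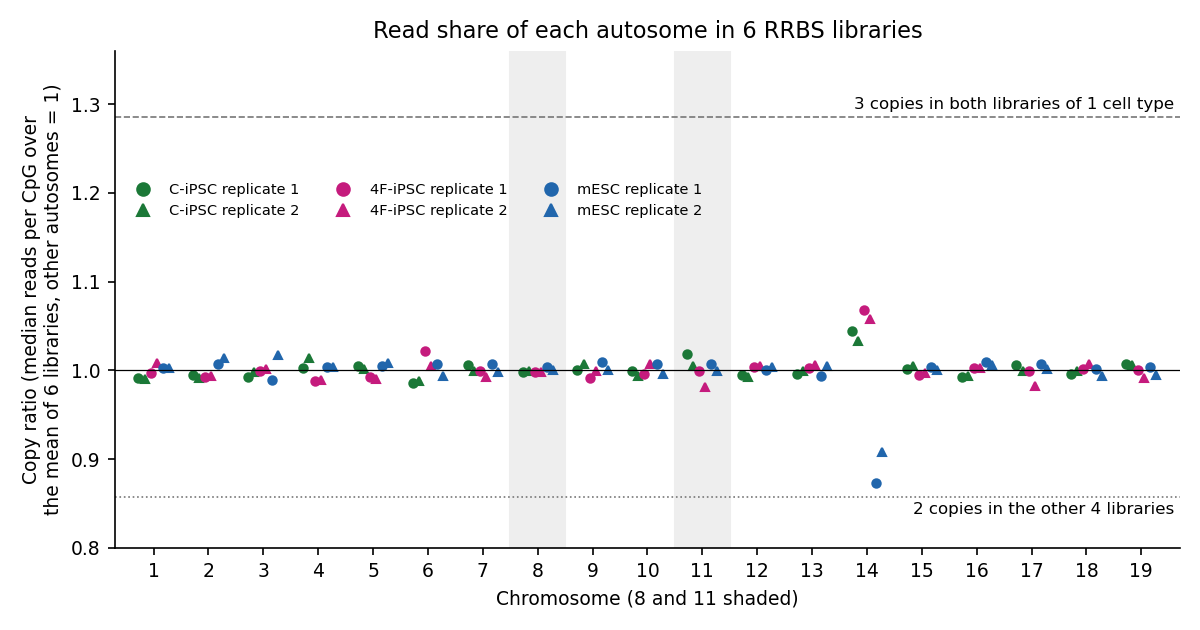
Copy ratio of each of the 19 autosomes (x axis) in the 6 libraries (points, colored by cell type), with 1 as the mean of the libraries. Chromosome 8 lies between 0.998 and 1.003 and chromosome 11 between 0.981 and 1.018, whereas chromosome 14 is at 0.873 and 0.908 in the mESC libraries.

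Depth was then compared within each library, in strata of MspI fragment length and GC content, which also shows gains shared by all libraries. Chromosome 8 had between 1.008 and 1.016 times the depth of the other autosomes, and chromosome 11 between 0.999 and 1.032 times. The other 16 autosomes without chromosome 14 had between 0.972 and 1.028. Chromosome X, of which male cells have 1 copy against 2 of an autosome, had between 0.530 and 0.551, and the measure therefore answered to a known change in copy number. The highest value of chromosome 11, in C-iPSC replicate 1, lay just above the range of these 16 autosomes. Within a library no test was made.

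**Figure D2:**
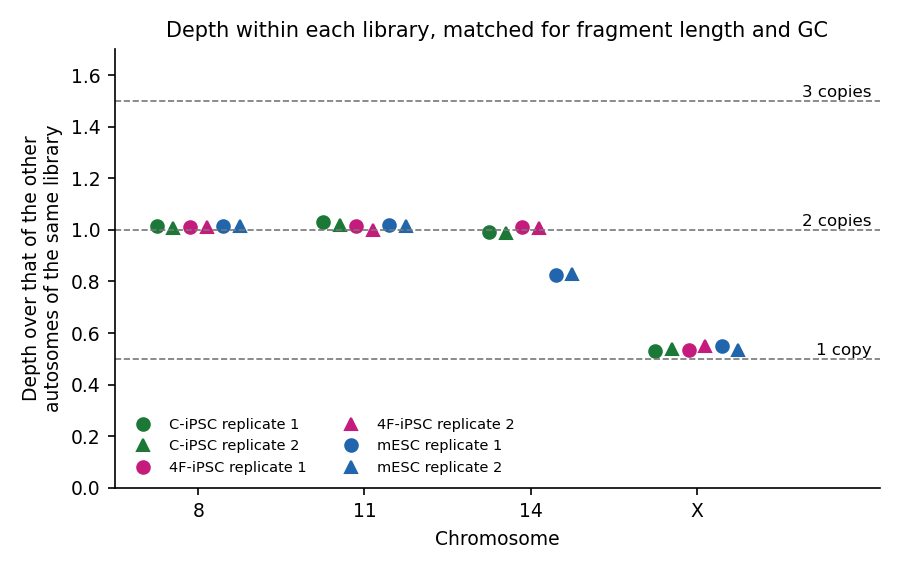
Depth of chromosomes 8, 11, 14 and X relative to the other autosomes of the same library, matched for fragment length and GC (y axis), for the 6 libraries (points). Dashed lines mark 1, 2 and 3 copies. Chromosomes 8 and 11 lie between 0.999 and 1.032, and chromosome X between 0.530 and 0.551.

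A gain or loss of part of a chromosome was sought in windows of 5 Mb. None of the 26 windows of chromosome 8 and none of the 25 of chromosome 11 was called by limma in any comparison, beside 3.59%, 1.8% and 0.2% of all autosomal windows in the same order of comparisons. At an unadjusted p under 0.05, chromosome 8 had 4, 2 and 5 windows and chromosome 11 had 3, 1 and 4, beside 15.8%, 10.2% and 12.4% of all autosomal windows. The log2 differences lay between -0.11 and 0.14 on chromosome 8 and between -0.12 and 0.09 on chromosome 11. In single libraries, windows of chromosome 8 had copy ratios between 0.909 and 1.09, both in the same window with only 347 CpGs, in C-iPSC replicate 1 and 4F-iPSC replicate 2. Among the 25 windows of chromosome 8 with at least 500 CpGs the range was narrower, from 0.924 to 1.045. Windows of chromosome 11 lay between 0.937 and 1.08. After correction for fragment length and GC, the window chr11:110000001-115000000 was called lower in C-iPSCs than in mESCs, by -0.11 (adjusted p = 0.0412), and lower in 4F-iPSCs, by -0.15 (adjusted p = 0.0126). Its adjusted p was 0.147 and 0.279 without the correction. The cause was not tested.

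**Figure D3:**
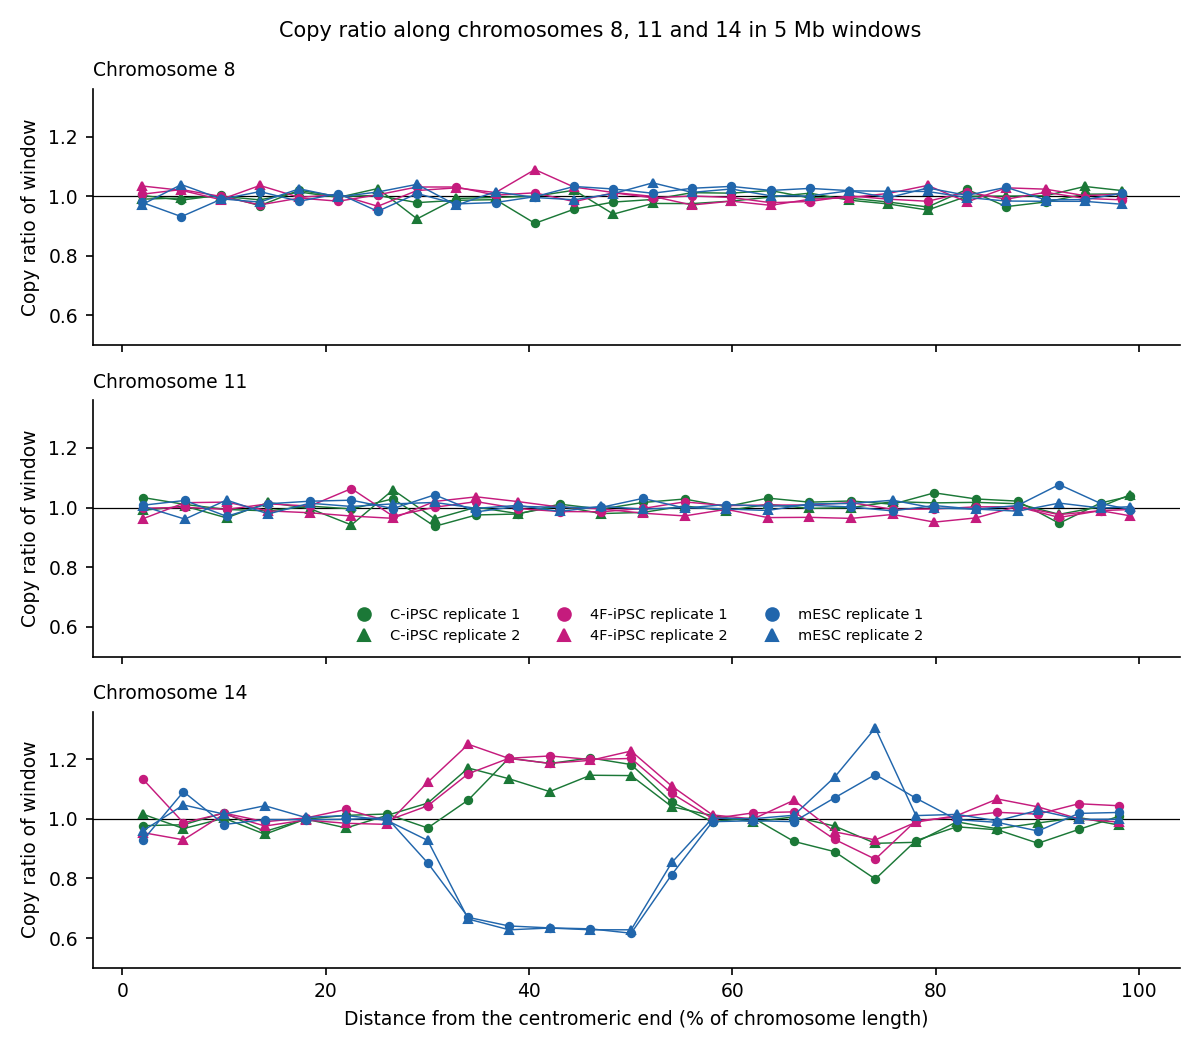
Copy ratio in 5-Mb windows (y axis) along chromosomes 8, 11 and 14 (panels; x axis, distance from the centromeric end as a percent of chromosome length), with a line for each of the 6 libraries. Windows of chromosomes 8 and 11 lie between 0.909 and 1.09, whereas a run of windows of chromosome 14 is near 0.63 in mESCs.

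Methylation on chromosomes 8 and 11 followed the order of the cell types seen on the other autosomes. The mean level of chromosome 8 was 25.2% and 29.8% for C-iPSCs, 31.9% and 33.2% for 4F-iPSCs, and 19.8% and 21.6% for mESCs. The cell types did not overlap. The other autosomes had 25.2%, 29.6%, 31.7%, 33.1%, 20.1% and 21.9% in the same libraries, and chromosome 8 lay between -0.319 and 0.202 points from them. Chromosome 11 was lower throughout, at 21.2% and 25.4% for C-iPSCs, 27.0% and 28.5% for 4F-iPSCs, and 16.8% and 18.3% for mESCs. It was lower than each of the other 17 autosomes in every library, the next lowest being chromosome 19. The share of highly methylated CpGs, with a level of at least 80%, was 12.4% ± 6.21 in C-iPSCs, 23.3% ± 0.163 in 4F-iPSCs and 2.73% ± 0.964 in mESCs on chromosome 8, and 9.44% ± 5.02, 18.1% ± 0.178 and 1.85% ± 0.707 on chromosome 11 (SD, n = 2).

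Taken relative to the other autosomes of the same library, chromosome 8 differed between iPSCs and mESCs. It lay 0.137 ± 0.0919 points above the other autosomes in C-iPSCs, 0.106 ± 0.0623 points above in 4F-iPSCs, and -0.284 ± 0.05 points from them in mESCs. The difference was 0.421 points between C-iPSCs and mESCs (95% interval 0.247 to 0.595, limma adjusted p = 0.00178) and 0.390 points between 4F-iPSCs and mESCs (adjusted p = 0.00164). Between 4F-iPSCs and C-iPSCs it was -0.0311 points (-0.205 to 0.143, adjusted p = 0.693). Chromosome 11 lay at -4.12 ± 0.159 points in C-iPSCs, -4.65 ± 0.0419 in 4F-iPSCs and -3.44 ± 0.199 in mESCs. In percentage points its relative level was lower in both iPSCs than in mESCs, with differences of -0.679 points for C-iPSCs (limma adjusted p = 0.00135) and -1.21 points for 4F-iPSCs (adjusted p = 2.11e-05). The difference of 4F-iPSCs from C-iPSCs was -0.533 points (adjusted p = 0.0103). As a ratio to the level of the other autosomes, chosen after seeing the data, the direction turned for chromosome 11. The ratio was 0.841 and 0.857 for C-iPSCs, 0.852 and 0.861 for 4F-iPSCs, and 0.836 in both mESC libraries, so that it was highest in iPSCs. On the log2 scale the difference from mESCs was 0.02 for C-iPSCs (limma adjusted p = 0.0587) and 0.03 for 4F-iPSCs (adjusted p = 0.00577), and that of 4F-iPSCs from C-iPSCs was 0.01 (adjusted p = 0.426). The lower level of chromosome 11 in iPSCs thus held for the difference in points and not for the ratio. For chromosome 8 the ratio kept the directions and the calls, with limma adjusted p of 0.00249 and 0.00269 versus mESCs. On the ratio scale 31.6%, 68.4% and 10.5% of the 19 autosomes were called in the 3 comparisons. Shifts in points were frequent, with 57.9%, 78.9% and 36.8% of the 19 autosomes called in the 3 comparisons. An exact two-sided permutation test over the libraries gave p = 0.3333 for each of the called differences in points, the smallest p that 2 against 2 libraries allow.

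**Figure D4:**
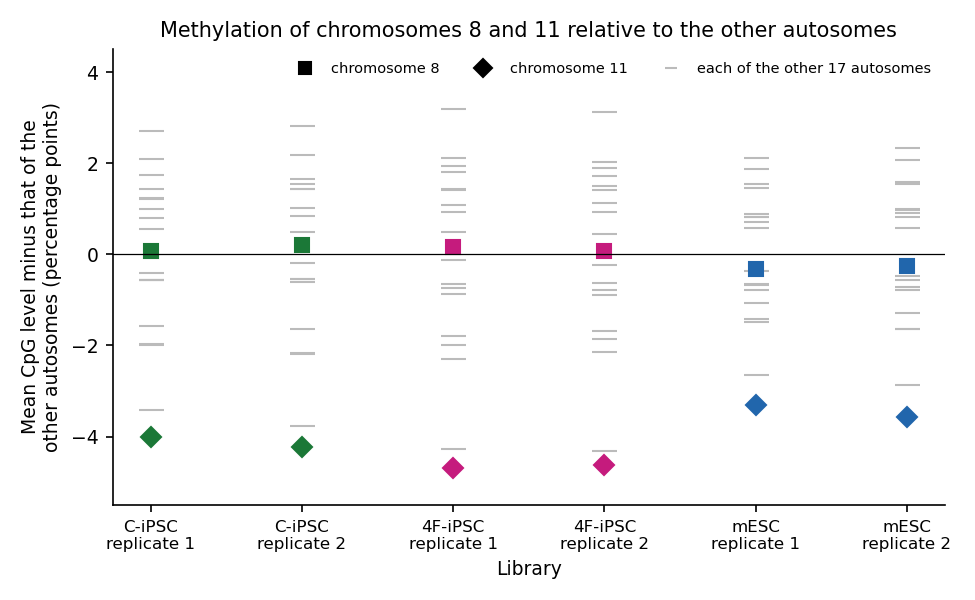
Mean CpG level of chromosomes 8 (squares) and 11 (diamonds) and of each of the other 17 autosomes (dashes) minus that of the other autosomes of the same library, in percentage points (y axis), by library (x axis). Chromosome 8 lies between -0.319 and 0.202 and chromosome 11 between -4.68 and -3.30, below all dashes.

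CpGs of the 2 chromosomes were not of the same kind. In promoters lay 52.8% of the CpGs of chromosome 8, 56.8% of those of chromosome 11 and 54.2% of those of the other autosomes, and 9.99%, 8.44% and 12.7% were in soft-masked repeats. After matching for local CpG density and promoter class, the relative level of chromosome 11 moved to -2.25, -2.49 and -2.07 points in C-iPSCs, 4F-iPSCs and mESCs, and that of chromosome 8 to -0.208, -0.298 and -0.517. With this matching, the differences on chromosome 11 shrank to -0.179, -0.422 and -0.242 points and that of 4F-iPSCs from mESCs on chromosome 8 to 0.219, and all remained called by limma. In gene bodies, chromosome 8 had mean levels of 50.1%, 58.7% and 37.0% in C-iPSCs, 4F-iPSCs and mESCs, and chromosome 11 had 46.1%, 54.5% and 34.1%. In intergenic sequence, these were 56.8%, 67.04% and 42.7% against 48.3%, 57.3% and 35.7%. High-CpG-density promoters (HCPs) were low in all cell types, with 2.79%, 3.53% and 2.58% on chromosome 8 and 2.98%, 3.86% and 2.80% on chromosome 11.

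Strongly hypermethylated CpGs were counted as those with a difference in level above 33.3 percentage points and a Fisher's exact test p under 0.05 on reads summed over replicates. In C-iPSCs versus mESCs, they were 1405 CpGs (2.58%) on chromosome 8 and 1551 (2.09%) on chromosome 11, beside 2.37% of the 933870 autosomal CpGs. In 4F-iPSCs versus mESCs, they were 8002 (14.7%) and 9090 (12.3%), beside 13.6%. In 4F-iPSCs versus C-iPSCs, they were 436 (0.802%) and 500 (0.675%), beside 0.934%. Both chromosomes were thus near the background in each comparison. Strongly hypomethylated CpGs were rare, with 6, 23 and 15 on both chromosomes together, beside 0.0168%, 0.0232% and 0.0177% of the autosomal CpGs. Leaving out each library gave 6 to 23, 20 to 36, and 11 to 51 of them, the highest without mESC replicate 2, 4F-iPSC replicate 2 and C-iPSC replicate 1. The test does not use the spread between replicates. With a quasi-binomial model, which does, the CpGs hypermethylated in 4F-iPSCs versus C-iPSCs were 287 and 331. Between the replicates of 1 cell type, 0.701% of the CpGs of chromosome 8 and 0.705% of those of chromosome 11 differed by the same criterion in C-iPSCs, which is close to the share called between 4F-iPSCs and C-iPSCs. These shares were 0.180% and 0.189% in 4F-iPSCs and 0.579% and 0.497% in mESCs. Without C-iPSC replicate 1, the calls between C-iPSCs and mESCs were 3727 and 4448, and without C-iPSC replicate 2 they were 851 and 881. Without mESC replicate 2, they were 3064 and 3416. Without C-iPSC replicate 2, the calls between 4F-iPSCs and C-iPSCs were 1277 and 1539.

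Few of the strongly hypermethylated CpGs were in promoters. Promoters held 7.26% of them on chromosome 8 and 6.77% on chromosome 11 in C-iPSCs versus mESCs, and 7.35% and 8.20% in 4F-iPSCs versus mESCs, beside 7.94% and 8.46% on the other autosomes. In 4F-iPSCs versus C-iPSCs, the share was 9.86% on chromosome 8 and 17.4% on chromosome 11, where 11.4% lay in HCPs, beside 11.01% and 3.71% on the other autosomes. For CpGs strongly higher in C-iPSCs versus mESCs, the median level in C-iPSCs and mESCs was 71.6% and 33.3% on chromosome 8 and 71.8% and 33.6% on chromosome 11. These levels chose the CpGs and are given as a description.

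Runs of at least 3 strong CpGs no more than 300 bp apart were taken as differentially methylated regions (DMRs). Hypermethylated DMRs were 86 on chromosome 8 and 99 on chromosome 11 in C-iPSCs versus mESCs, 1031 and 1154 in 4F-iPSCs versus mESCs, and 18 and 24 in 4F-iPSCs versus C-iPSCs. Per 10000 CpGs these were 15.8 and 13.4, beside 15.6 on the other autosomes, then 189.6 and 156 beside 169, and 3.31 and 3.24 beside 4.72. The reads that chose the DMRs also give their levels, which are therefore a description.

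Grb10 held the DMR with the most strong CpGs for 4F-iPSCs compared with C-iPSCs. The gene encodes an adaptor that dampens insulin and growth factor signaling. The region (chr11:12025820-12026881, 61 of 62 CpGs, GRCm38) lies 1090 bp from the nearest start used, overlaps exons of shorter transcripts, and holds the first printed sequence. Its level was 4.85% and 4.71% for C-iPSCs, 46.9% and 57.4% for 4F-iPSCs, and 18.2% and 19.9% for mESCs. The cell types did not overlap, and C-iPSCs lay below mESCs as well as below 4F-iPSCs. The second lay at the start of Zrsr1, a splicing factor gene inside Commd1 (chr11:22971902-22972265, 22 of 22 CpGs). Its level was 4.82% and 4.46% for C-iPSCs, 50.3% and 62.8% for 4F-iPSCs, and 25.0% and 17.9% for mESCs. The 2 regions thus had the same order of cell types, with mESCs in between.

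On chromosome 8, the region named by March1 (10 of 13 CpGs) had 34.5% and 29.4% for C-iPSCs, 66.97% and 75.0% for 4F-iPSCs, and 18.0% and 25.8% for mESCs. An intergenic region 93561 bp from Psmd7 (chr8:107682025-107682192, 6 of 6 CpGs) had 8.23% and 16.1% for C-iPSCs, 57.8% and 50.8% for 4F-iPSCs, and 5.22% and 10.4% for mESCs. In this intergenic region, the C-iPSC and mESC libraries overlapped and both 4F-iPSC libraries were higher.

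Against mESCs, 7 of the 8 regions with the most strong CpGs were higher in both kinds of iPSCs. The other was a part of the Grb10 region already described (chr11:12025863-12026432, 28 of 41 CpGs in 4F-iPSCs), with 4.83% and 4.102% for C-iPSCs, 49.2% and 59.6% for 4F-iPSCs, and 19.02% and 18.3% for mESCs. There C-iPSCs lay below mESCs. The region named by Stac2 (chr11:98067415-98067752, 21 of 22 CpGs in 4F-iPSCs) had 41.6% and 50.0% for C-iPSCs, 69.5% and 73.3% for 4F-iPSCs, and 13.7% and 17.8% for mESCs. An exon of Tenm3, a cell adhesion gene (chr8:48240367-48240638, 14 of 15 CpGs in 4F-iPSCs), had 68.0% and 75.0%, 87.7% and 85.0%, and 40.8% and 49.8%. An exon of Pskh1, a kinase gene (chr8:105913041-105913464, 15 of 20 CpGs), had 58.6% and 69.0%, 78.8% and 73.8%, and 33.9% and 40.3%. In C-iPSCs versus mESCs, the region named by Nat1 (8 of 10 CpGs) had 73.3% and 78.4% for C-iPSCs, 90.0% and 91.2% for 4F-iPSCs, and 33.3% and 40.5% for mESCs. An exon of Thsd1 (chr8:22243465-22243784, 7 of 11 CpGs) had 51.4% and 65.7%, 79.7% and 77.5%, and 19.3% and 25.8%. The region named by Fbxl20 (8 of 9 CpGs) had 86.8% and 89.8%, 95.4% and 94.7%, and 49.5% and 56.1%. An exon of Dhx8, a splicing helicase gene (chr11:101738212-101738465, 8 of 13 CpGs), had 76.6% and 81.5%, 87.7% and 88.5%, and 42.2% and 56.9%. In the 7 regions other than Grb10, 4F-iPSCs were above C-iPSCs and C-iPSCs above mESCs in all libraries.

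Promoters, 1 kb to each side of a transcript start with at least 5 CpGs, numbered 917 on chromosome 8 and 1360 on chromosome 11, of 16716 tested. In C-iPSCs versus mESCs, 28 promoters of chromosome 8 (3.05%) and 17 of chromosome 11 (1.25%) were higher by limma on log2 odds of methylation, beside 2.59% of all promoters. In 4F-iPSCs versus mESCs, 121 (13.2%) and 140 (10.3%) were higher, beside 12.6%. In 4F-iPSCs versus C-iPSCs, 12 (1.31%) and 10 (0.735%) were higher, beside 1.54%. Promoters called lower were 1 and 4, 2 and 1, and 3 and 1, beside 0.191%, 0.185% and 0.0718%. The counts depended on the setting. In C-iPSCs versus mESCs, subtracting each library's median, chosen after seeing the data, left 3 higher on chromosome 8 and 0 on chromosome 11, and leaving out each library gave 2 to 61 and 0 to 58. Without mESC replicate 1, 68 and 65 were higher in 4F-iPSCs versus mESCs, and the other fits that left out 1 library were within 1.5 times the counts given. In 4F-iPSCs versus C-iPSCs, leaving out each library gave 0 to 20 on chromosome 8 and 3 to 14 on chromosome 11, the lowest without C-iPSC replicate 1. The same subtraction left 79 and 86 higher in 4F-iPSCs versus mESCs, and 0 and 1 in 4F-iPSCs versus C-iPSCs. All promoters had 1 common standard error of 0.49 log2 odds in this model, so that promoters of a few percent with few reads can be called. Among the named promoters, those called lower with levels no higher than 5.19% in any library were Gm10060, Zfp867, Rnu3b1, Zfp958 and Cybc1. The last 4 had a level of 0% in at least 1 library. Without C-iPSC replicate 1 the fitted differences of Zfp867 and Rnu3b1 changed sign, as did that of Zfp958 without mESC replicate 2. Leaving out 1 library also ended many single calls. In the counts that follow, promoters that share the same CpGs (1700018B08Rik with Gm27045, and Tomm20 with Gm26397) enter once for each gene. Of 54 differences of named promoters, 28 were no longer called in the same direction without mESC replicate 1, 22 without mESC replicate 2, 18 without C-iPSC replicate 1, and 14 without C-iPSC replicate 2, counting the sign changes.

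Zrsr1 (chr11:22972005, plus strand, 41 CpGs) had the largest difference between 4F-iPSCs and C-iPSCs among the promoters of chromosome 11. Its level was 4.44% and 4.17% for C-iPSCs, 48.5% and 60.5% for 4F-iPSCs, and 23.0% and 18.8% for mESCs, with 2530 to 3985 reads a library. The 95% Wilson interval of the lowest library was 3.53% to 4.92%, and intervals cover counting error only. The difference of 4F-iPSCs from C-iPSCs was 4.73 log2 odds (limma adjusted p = 1.52e-18), that of 4F-iPSCs from mESCs 2.19 (adjusted p = 1.27e-04), and that of C-iPSCs from mESCs -2.54 (adjusted p = 8.17e-05). Without mESC replicate 1, the last was not called (-2.36, adjusted p = 0.0885). The main promoter of Grb10 was at 1.27% to 2.83% in all libraries and was not called.

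1700018B08Rik and Gm27045 on chromosome 8 (starts at chr8:121541954 and 121542080) share the same 13 CpGs and are 1 measurement. The level was 50.3% and 60.4% for C-iPSCs, 82.4% and 80.1% for 4F-iPSCs, and 10.1% and 10.4% for mESCs, with 517 to 1036 reads a library. The lowest library had a Wilson interval of 7.75% to 13.0%. C-iPSCs were higher than mESCs by 3.43 log2 odds (limma adjusted p = 4.50e-09), and 4F-iPSCs by 5.24 (adjusted p = 4.29e-23). Bco1, the carotene-cleaving oxygenase, had 71.6% and 83.2%, 83.6% and 74.9%, and 37.4% and 41.7%. The iPSC libraries overlapped and were higher than mESCs by 2.41 and 2.56 log2 odds (adjusted p = 2.81e-04 and 4.92e-06). For C-iPSCs the call of Bco1 was lost without C-iPSC replicate 2 (limma adjusted p = 0.207) and without mESC replicate 1 (adjusted p = 0.121).

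Among called promoters of chromosome 11, those of Gpr179, Unc45b and Mfap4 had the largest rise in percentage points in C-iPSCs versus mESCs. Gpr179 encodes a receptor of retinal bipolar cells, Unc45b a myosin chaperone, and Mfap4 a microfibril protein. Gpr179 had 80.1% and 83.0% for C-iPSCs, 92.1% and 91.1% for 4F-iPSCs, and 41.8% and 57.6% for mESCs. Unc45b had 51.5% and 70.7%, 75.0% and 68.7%, and 29.7% and 32.5%. Mfap4 had 70.1% and 70.9%, 86.2% and 81.8%, and 33.7% and 47.8%. Without mESC replicate 1 or without C-iPSC replicate 2, none of these 3 was called in C-iPSCs versus mESCs, with limma adjusted p between 0.150 and 1.000. In 4F-iPSCs versus mESCs, the largest rises in percentage points were at Gm12241, Scarf1, a scavenger receptor gene, and Gm11957. Gm12241 had 76.6% and 78.2% against 16.6% and 31.3%, and Scarf1 had 87.0% and 86.2% against 34.6% and 43.9%. Gm11957 had 64.5% and 60.7% against 7.43% and 23.1%. On chromosome 8, Gm7192 had 91.6% and 91.3% against 34.6% and 44.8%.

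Between 4F-iPSCs and C-iPSCs, AI429214 on chromosome 8 had 42.9% and 37.2% in 4F-iPSCs and 13.9% and 14.4% in C-iPSCs, and Gm18646 had 82.1% and 81.6% against 50.0% and 60.5%. Gm11964 on chromosome 11 had 54.3% and 57.6% against 21.3% and 36.1%. Without C-iPSC replicate 1, none of these 3 was called (limma adjusted p = 0.150, 0.692 and 1.000). The call of Gm18646 was also lost without either mESC library, and that of Gm11964 without either mESC library or without 4F-iPSC replicate 2. Some promoters were higher in C-iPSCs than in both other cell types. The shared CpGs of Tomm20, the mitochondrial import receptor, and Gm26397 had 10.3% and 9.61% for C-iPSCs, 1.69% and 2.41% for 4F-iPSCs, and 3.08% and 4.03% for mESCs. The difference of 4F-iPSCs from C-iPSCs was -2.42 log2 odds (limma adjusted p = 2.31e-04) and that of C-iPSCs from mESCs 1.60 (adjusted p = 0.0439). Cyb5b, a cytochrome of the outer mitochondrial membrane, had 6.45% and 9.47%, 1.60% and 3.34%, and 2.32% and 1.747%. The calls of Cyb5b, and that of Tomm20 between C-iPSCs and mESCs, were each lost in 3 to 5 of the 6 fits that left out 1 library, mESC replicate 1 among them (limma adjusted p = 0.0699 and 0.132 for Cyb5b, 1.000 for Tomm20). Atxn1l and the keratin gene Krt19 were lower in 4F-iPSCs than in mESCs. Atxn1l had 3.66% and 4.91% in 4F-iPSCs, 18.1% and 11.1% in mESCs, and Krt19 had 1.63% and 2.84% against 8.24% and 7.80%. Without mESC replicate 1, neither was called (limma adjusted p = 0.215 and 0.0677).

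The genes of the 2 chromosomes were also grouped by role. Of the pluripotency and LIF signaling genes, 7 of 8 were measured and 0 were called in any comparison, with levels between 1.38% and 18.3%. Klf2, Sall1, Cdh1, Lif, Stat3 and Socs3 were below 5% in every library. Of the growth, cell cycle and p53 genes, 11 of 12 were measured, 0 were called, and all 11 were below 10% in every library. Among all promoters, 2.59%, 12.6% and 1.54% were called higher in C-iPSCs versus mESCs, 4F-iPSCs versus mESCs, and 4F-iPSCs versus C-iPSCs. In the same order, 0.191%, 0.185% and 0.0718% were called lower. Trp53 had 2.62% and 4.90% for C-iPSCs, 2.99% and 5.64% for 4F-iPSCs, and 3.38% and 2.43% for mESCs. At an unadjusted p under 0.05 by limma, 1 gene of the pluripotency list and 1 of the growth list were found in 4F-iPSCs versus mESCs, and 0 of both in the other comparisons, beside 18.1% of all promoters in 4F-iPSCs versus mESCs and 10.2% and 8.96% in C-iPSCs versus mESCs and 4F-iPSCs versus C-iPSCs. The median difference of 4F-iPSCs from mESCs in these lists was 0.877 and 0.458 points, beside 0.737 points over all promoters tested.

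In the Hoxb cluster, 9 of 10 genes were measured and 1, Hoxb3, was higher in 4F-iPSCs than in mESCs, beside 12.6% of all promoters. Its level was 20.3% and 22.8% in 4F-iPSCs, 8.46% and 10.3% in mESCs, and 12.7% and 15.1% in C-iPSCs, a difference of 1.41 log2 odds from mESCs (limma adjusted p = 0.0343). Of the 16 lineage transcription factors, 1 was called, Foxc2, a regulator of mesenchyme, with 8.64% and 11.6% in 4F-iPSCs and 3.32% and 3.79% in mESCs (1.59 log2 odds, adjusted p = 0.0110). At an unadjusted p under 0.05 by limma, 3 of 9 Hoxb genes and 3 of 16 lineage factors were found in this comparison, beside 18.1% of all promoters, and their median differences were 1.34 and 0.816 points, beside 0.737. Of these 6 only Hoxb2 was lower in 4F-iPSCs, at 4.97% and 2.93%. In the Hoxb list 1 gene, Hoxb2 again, was found in C-iPSCs versus mESCs, with a lower level (4.62% and 1.54% against 4.85% and 11.3%, -1.45 log2 odds), and 0 in 4F-iPSCs versus C-iPSCs, and in the lineage list 0 and 2, beside 10.2% and 8.96%. Both calls were lost without either mESC library (limma adjusted p between 0.102 and 0.411) or without 4F-iPSC replicate 2 (adjusted p = 0.105 and 0.0816). Over all alternatives, the call of Hoxb3 was lost in 5 of 11 and that of Foxc2 in 4 of 12. The largest limma adjusted p of Foxc2 was 0.825. Hand2, Sox1, Lhx1 and Sox9 were at 0.984% to 5.03%.

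Of the 9 germline genes 6 were measured, and they differed widely in level and in difference. By limma 1 was higher in C-iPSCs and 3 in 4F-iPSCs versus mESCs, beside 2.59% and 12.6% of all promoters, and at an unadjusted p under 0.05 these were 3 and 6, beside 10.2% and 18.1%. None was called, and 0 had an unadjusted p under 0.05, in 4F-iPSCs versus C-iPSCs. Their median differences were 10.2 points in C-iPSCs versus mESCs, 17.3 in 4F-iPSCs versus mESCs and 7.12 in 4F-iPSCs versus C-iPSCs, beside 0.212, 0.737 and 0.600 over all promoters tested. Low-CpG-density promoters were also higher in iPSCs. On chromosome 8 their CpGs had mean levels of 59.9%, 70.4% and 43.5% in C-iPSCs, 4F-iPSCs and mESCs. On chromosome 11 these were 55.1%, 65.7% and 40.6%. The germline promoters were not compared with promoters of like level. Dpep3, a testis dipeptidase gene, had 85.0% and 90.0% for C-iPSCs, 92.6% and 91.2% for 4F-iPSCs, and 65.5% and 73.7% for mESCs, and was higher than in mESCs in both (limma adjusted p = 0.0397 and 5.80e-05). The call for C-iPSCs was lost without C-iPSC replicate 2 (adjusted p = 0.965) and without either mESC library (adjusted p = 1.000 and 0.171). Tex19.1, a germline gene that restrains retroelements, had 23.4% and 47.5%, 49.3% and 44.8%, and 12.9% and 19.15%. Its rise in 4F-iPSCs was called (2.24 log2 odds, adjusted p = 8.08e-05), except without mESC replicate 1 (adjusted p = 0.0557) and with each library's median subtracted (adjusted p = 0.0780). The difference of C-iPSCs from mESCs was not called (adjusted p = 0.0691). Tex19.2 had 67.03% and 75.4%, 82.6% and 82.8%, and 46.4% and 49.0%, and its rise in 4F-iPSCs was called (2.39 log2 odds, adjusted p = 2.31e-05). Syce2 and Tex14 were at 2.65% to 7.17%. Meioc, a meiosis gene, had 16.8% and 18.9% for C-iPSCs, 23.1% and 32.2% for 4F-iPSCs, and 13.0% and 17.6% for mESCs, and was not called. The median for C-iPSCs versus mESCs thus lies between Syce2, Tex14 and Meioc, with differences of 1.31, 1.49 and 2.51 points, and Dpep3, Tex19.1 and Tex19.2, with 17.9, 19.4 and 23.5 points.

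Among the imprinted genes of chromosome 11, 3 of 4 were measured, and Zrsr1 was the one called, in every comparison. It was lower in C-iPSCs versus mESCs, beside 0.191% of all promoters, and higher in the others, beside 12.6% and 1.54%. Commd1, the gene around Zrsr1, was at 1.40% to 2.99%. Of the fibroblast and matrix genes, 3 of 5 were measured, and 1, Cdh11, a cadherin gene of mesenchymal cells, was higher in 4F-iPSCs than in mESCs, beside the 12.6% of all promoters. Its level was 14.3% and 12.6% in 4F-iPSCs, 6.66% and 10.7% in C-iPSCs, and 4.58% and 6.01% in mESCs (1.48 log2 odds, limma adjusted p = 0.0221). The call was lost without 4F-iPSC replicate 1 (adjusted p = 0.0615) and without either mESC library (adjusted p = 0.389 and 0.103). Mmp2 was at 5.82% to 10.6% and Plat at 2.16% to 4.40%, and neither was called. Sparc, a matrix glycoprotein gene, had a single CpG with enough reads, too few for the test, at 44.7% to 81.8%, and Col1a1 had none. Feeder cells are fibroblasts, and the labels speak of feeder layers removed on gelatin before collection. Per the paper's methods, all 3 cell types were kept on gelatin-coated plates. The part of carried-over feeder cells in these levels was not tested.

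**Figure D5:**
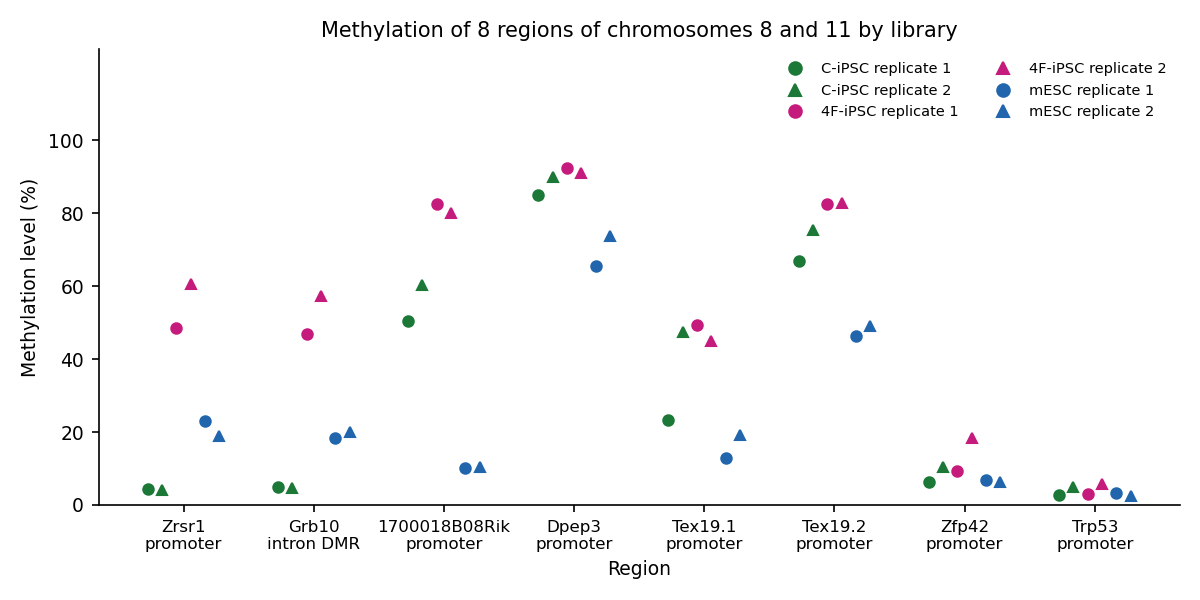
Methylation level (percent, y axis) of the Grb10 DMR and of 7 promoters of chromosomes 8 and 11 (x axis) in the 6 libraries (points, colored by cell type). In Grb10 and at Zrsr1 the C-iPSC points are under 5%, mESCs are between 18.2% and 23.0%, and 4F-iPSCs between 46.9% and 60.5%, whereas Trp53 is below 6% in all libraries.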

How the data were processed

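RRBS data of 6 libraries were used, 2 per cell type. Per the paper's methods, read pairs were aligned to mm10 with BSMAP 2.90, and MOABS 1.3.2 called cytosines. The authors deposited, for each library and CpG, the count of reads and of methylated reads on both strands together, without normalization. The methylated fraction deposited beside them served as a check on the ratio of these counts, and no value differed by more than 0.001. The labels give the cell type of each library. Members and gene lists were chosen with earlier results of these data known.

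CpGs with 10 to 1000 reads in every library entered. Copy ratios were taken as medians over CpGs, levels as means over CpGs. Chromosomes, 5-Mb windows, and promoters were fitted over all autosomes with limma 3.58.1 in R 4.3.3, with adjustment by the Benjamini-Hochberg method within a comparison and calls at an adjusted p under 0.05. For strong CpGs, reads of the replicates were summed and tested by Fisher's exact test (two-sided, unadjusted), after the paper's methods. Promoter log2 odds had 0.5 reads added to each count. The scripts were tested on simulated data. Named promoters are those of the lists and, per chromosome and comparison, the 3 called with the largest difference in percentage points each way. A list of the plan is not reported here. Named DMRs are the 2 per chromosome and comparison with the most strong CpGs. Gene models were GENCODE on GRCm38, the build named mm10 by UCSC. Replicates differed beyond sampling noise, with a chi-square of reads per degree of freedom of 2.93 in 4F-iPSCs, 3.09 in C-iPSCs, and 5.28 in mESCs. The alternatives were other read minima, other scalings, edgeR 4.0.16, a quasi-binomial model, a replicate block, and leaving out each library.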

Additional observations from a re-analysis of the deposited data

How the results depend on the processing

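Leaving out single CpG classes or changing the scaling kept every difference in copy ratio small, but the sign of differences near 0 changed. For chromosome 8, the log2 difference of C-iPSCs from mESCs became 0.0020 with at least 20 reads, 0.000209 with summed reads, 0.0121 in 500-bp bins, 0.00189 with fragment correction, 0.00237 with edgeR and TMM, and 0.00381 with DESeq2's size factors. That of 4F-iPSCs from mESCs became 0.000986 in bins, 0.0015 with TMM, and 0.00153 with size factors, and that of 4F-iPSCs from C-iPSCs 0.00483 over CpGs under a level of 0.3 and 0.00281 without soft-masked CpGs. For chromosome 11, bins gave calls at -0.0269 for 4F-iPSCs versus mESCs and -0.0403 versus C-iPSCs. Leaving out each library gave -0.00919 to 0.00139 and -0.0026 to 0.00356 for chromosome 8 in C-iPSCs versus mESCs and 4F-iPSCs versus C-iPSCs, and -0.0426 to -0.0168 for chromosome 11 in 4F-iPSCs versus C-iPSCs, with a call without mESC replicate 2. Over all copy ratios and alternatives, 83 values kept direction and call, 15 changed sign and 4 became called. The relative level of chromosome 8 in 4F-iPSCs versus C-iPSCs ranged from -0.0961 to 0.0339 points, and its differences from mESCs from 0.308 to 0.739 for C-iPSCs and from 0.219 to 0.686 for 4F-iPSCs. Those of chromosome 11 ran from -0.820 to -0.179, -1.58 to -0.422, and -0.888 to -0.242, and exact permutation, with the values of 0.421, 0.390, -0.679, -1.21 and -0.533, could not reach p under 0.05. As a log2 ratio, chosen after seeing the data, the relative level of chromosome 11 changed sign to 0.0220, 0.0346 and 0.0126, with limma adjusted p of 0.0587, 0.00577 and 0.426. Fragment correction called 1 window of chromosome 11 in C-iPSCs and 1 in 4F-iPSCs versus mESCs.

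Correlations of replicate differences between cell types did not settle whether the replicate numbers pair the samples. Over windows these were 0.107 for C-iPSCs with mESCs, -0.0430 for 4F-iPSCs with mESCs and 0.565 for 4F-iPSCs with C-iPSCs. Over promoters they were -0.335 to 0.0139. With the replicate block, chromosome 11 was called in 4F-iPSCs versus C-iPSCs (-0.0306, limma adjusted p = 0.0135), strong CpGs were the same in number, and promoters called higher were 43 and 25 on chromosome 8 and 38 and 16 on chromosome 11 in C-iPSCs versus mESCs and 4F-iPSCs versus C-iPSCs, and 9 and 5 on both chromosomes were lower in C-iPSCs and 4F-iPSCs than in mESCs. With crossed numbers, an alternative chosen after seeing the data, these were 78 and 68, 77 and 60, and 13 and 8.

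With a difference above 0.5, strong CpGs on chromosome 8 were 71, 1179 and 36 in C-iPSCs versus mESCs, 4F-iPSCs versus mESCs, and 4F-iPSCs versus C-iPSCs, and on chromosome 11 46, 1168 and 67, and hypomethylated ones on both 0, 8 and 3. In 4F-iPSCs versus C-iPSCs, at least 20 reads gave 290 on chromosome 8, and the quasi-binomial model gave 287 and 331. Hypomethylated CpGs in C-iPSCs versus mESCs were 3 under each. Leaving out each library gave 851 to 3727, 6103 to 9529, and 358 to 1277 on chromosome 8, 881 to 4448, 6950 to 10903, and 390 to 1539 on chromosome 11, and 6 to 23, 20 to 36, and 11 to 51 hypomethylated CpGs on both.

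Promoters called higher changed most. Within 0.5 kb of the start they were 10 on chromosome 8 and 9 on chromosome 11 in C-iPSCs versus mESCs, and 89 on chromosome 11 in 4F-iPSCs versus mESCs. With at least 10 CpGs they were 3, 36 and 3 on chromosome 8 and 5, 37 and 2 on chromosome 11, and 2 and 1 were lower in iPSCs than in mESCs. With each library's median subtracted, chosen after seeing the data, they were 3, 79 and 0, and 0, 86 and 1, with 1 and 7 lower. With a trended prior, also chosen then, they were 48 and 28 on chromosome 8 and 41 and 19 on chromosome 11 in C-iPSCs versus mESCs and 4F-iPSCs versus C-iPSCs. Leaving out each library gave 2 to 61, 68 to 136, and 0 to 20 on chromosome 8, 0 to 58, 65 to 168, and 3 to 14 on chromosome 11, and 0 to 11, 1 to 8, and 2 to 9 lower on both. Zfp867 ranged from -4.18 to 0.68 and from -0.34 to 4.53 log2 odds, Rnu3b1 from -4.00 to 0.30 and from -0.33 to 3.97 (C-iPSCs versus mESCs, and 4F-iPSCs versus C-iPSCs), and Zfp958 from -3.40 to 0.0736 (4F-iPSCs versus mESCs). Causes were not tested. With 2 libraries per cell type and 1 common standard error, single promoter calls are limited.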

Other observations

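Chromosome 14 was the autosome whose copy ratio lay farthest from 1, at 0.873 and 0.908 in mESCs and between 1.033 and 1.067 in the iPSC libraries. Its matched depth within a library was between 0.824 and 1.011. In the 4 windows of chr14:45000001-65000000, with 8267 CpGs, the copy ratio was 0.616 to 0.641 in the mESC libraries and 1.09 to 1.23 in the iPSC libraries. Divided by the mean of the iPSC libraries, the mESC libraries were at 0.533 and 0.532. This region was chosen after its values were seen.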
